A study of Mus musculus with 6 samples.

Results

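The arrays hold 2477 probes for RefSeq non-coding transcripts, out of 56605 different non-control probes. They were chosen by their accession alone: every probe whose target accession begins with NR_, the RefSeq class of curated transcripts with no annotated protein product. The 2477 probes lie on 2531 spots and stand for 2342 accessions and 2268 gene symbols. In the RefSeq annotation 2046 of the probes belong to long non-coding RNA genes, 288 to pseudogenes, 97 to protein-coding genes that also make a non-coding transcript, 29 to structural small RNAs, 6 to antisense RNAs and 11 to genes of another or no class. The structural class also holds long ribosomal RNA, such as Rn28s1, and is called structural small RNAs below for short.

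The study compared cultured bone marrow stromal cells of mice without the long non-coding RNA gene NONMMUT002667 (KO) with those of wild-type mice (WT). Each group had 3 samples, each hybridised in 1 colour (Cy3) to 1 Agilent array, and all 6 samples are labelled male. Cells were released from crushed femurs with collagenase, sorted as Sca-1+ CD29+ CD45- CD11b-, and grown to the first passage. The strain, the age, how the gene was removed and whether animals were pooled are not given in the sources used here. The labels' description and extraction fields speak of human blood, whereas the titles, source names and organism field speak of mouse marrow cells, and the latter were followed. No probe carries the name of the deleted RNA, so its loss was not checked here.

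Long non-coding RNAs are transcribed and often spliced and polyadenylated like messenger RNAs, but many stay in the nucleus and most are made at low levels and in few cell types. Some act at chromatin, as the imprinted Kcnq1ot1 and Airn do, and others scaffold nuclear bodies, as Neat1 does in paraspeckles. Host genes such as Gas5 are transcribed for the small nucleolar RNAs (snoRNAs) cut from their introns, while their spliced exons are translated and quickly destroyed by nonsense-mediated decay. Structural small RNAs are a separate kind: abundant, stable parts of ribosomes, spliceosomes and RNA-processing enzymes.

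The probe is all that the array reads of a transcript, so the sequences that carry the main results are shown here, 5′ to 3′ as deposited, with positions on mm9. Capitals mark AATAAA or ATTAAA, the hexamers that signal polyadenylation; they were searched on the probe's strand only and occur in 447 of the 2477 NR_ probes and in 4167 of the 29638 probes for RefSeq coding transcripts (NM_). The first set holds snoRNA host, immune and HOX cluster RNAs and 1700012I11Rik, the member with the smallest adjusted p. The probes of Gas5 lie at chr1:162967641-162968147 (plus strand, a span longer than the probe) and chr1:162968590-162968649 (plus strand). The Snhg12 probe lies at chr4:131866864-131866922 (plus strand), the Miat probes at chr5:112642308-112642367 and chr5:112650874-112653266 (both minus strand), Haglr at chr2:74588186-74588245 (minus strand), Hoxa11os at chr6:52199709-52199768 (plus strand) and 1700012I11Rik at chr15:67208597-67208656 (plus strand).
Gas5, brighter probe: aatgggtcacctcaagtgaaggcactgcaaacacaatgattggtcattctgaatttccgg
Gas5, dimmer probe: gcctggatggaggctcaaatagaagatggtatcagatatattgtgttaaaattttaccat
Snhg12: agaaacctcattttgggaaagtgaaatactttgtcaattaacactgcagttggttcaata
Miat, detected probe: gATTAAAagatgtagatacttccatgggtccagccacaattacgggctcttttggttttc
Miat, undetected probe: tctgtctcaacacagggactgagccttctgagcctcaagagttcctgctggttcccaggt
Haglr: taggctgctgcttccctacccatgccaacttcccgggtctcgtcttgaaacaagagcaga
Hoxa11os: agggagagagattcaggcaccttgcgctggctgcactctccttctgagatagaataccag
1700012I11Rik: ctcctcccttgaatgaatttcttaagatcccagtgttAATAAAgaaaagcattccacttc

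The second set shows that probes of 1 gene can read differently: of the NR_ probes shown for Meg3, a maternally expressed RNA of the Dlk1-Dio3 imprinted region, 1 was detected and 2 were not. The detected NR_ probe lies at chr12:110809678-110809737, and the others at chr12:110806386-110806445 and chr12:110799833-110799892, all on the plus strand. The probes of Neat1 (chr19:5844123-5844182, minus strand) and Xist (chrX:100662174-100662233, minus strand) are given beside them, the latter because its signal set 2 arrays apart.
Meg3, detected probe: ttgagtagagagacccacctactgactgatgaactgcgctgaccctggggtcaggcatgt
Meg3, undetected probe a: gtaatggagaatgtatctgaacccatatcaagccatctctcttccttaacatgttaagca
Meg3, undetected probe b: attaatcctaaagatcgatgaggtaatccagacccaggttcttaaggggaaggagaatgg
Neat1, brighter probe: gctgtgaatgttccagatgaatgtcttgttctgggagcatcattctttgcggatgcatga
Xist: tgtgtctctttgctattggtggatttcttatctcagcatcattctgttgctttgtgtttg

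Levels are log2 processed signals relative to the 75th percentile of the same array, so 0 is the level of a fairly bright probe, and all differences are KO minus WT on this log2 scale. Each array's Cy3 signal has its own detection limit. The lowest signal marked well above background was -3.88, -4.11 and -4.07 on the WT arrays and -3.63, -3.46 and -3.07 on the KO arrays. Xist, the RNA that silences 1 X chromosome in female cells, was well above background on 2 arrays, at -0.01 in WT replicate 3 and 0.16 in KO replicate 1, and lay between -6.33 and -5.33 on the other arrays. This goes against the label of all 6 samples as male, so results are also given without those 2 arrays. All 3 WT arrays lie in one row of the slide and all 3 KO arrays in the other, so array row and genotype cannot be told apart. Of 10 stromal markers 9 were well above background on all 6 arrays, but so were all 9 macrophage markers, including Ptprc (CD45; 3.76 to 4.28) and Itgam (CD11b; 4.43 to 4.76), the markers the sort selected against. The arrays read whole cultures, in which fewer cells of a type and less RNA per cell cannot be told apart.

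Non-coding probes were detected far less often than coding probes. The share of NR_ probes well above background was 30.7%, 32.9% and 33.5% on the WT arrays and 29.9%, 29.7% and 25.8% on the KO arrays. For the 29638 NM_ probes it was 66.1%, 67.5% and 67.9% against 64.6%, 63.5% and 60.8%. The gap between NR_ and NM_ probes was -34.6 percentage points on average and had the same sign on 6 of 6 arrays (exact sign-flip permutation test, two-sided, p = 0.03125, the smallest that 6 arrays allow). All 6 arrays carry the same probes, so this p speaks only to these arrays and not to other sets of transcripts or probes. Without the 2 arrays with Xist signal it was -34.7 points, where 4 arrays allow no p below 0.125.

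The share was lower in KO (28.5% ± 2.27, SD, n = 3) than in WT (32.4% ± 1.44, SD, n = 3), by 3.89 points, and the groups did not overlap. The exact permutation test gave p = 0.1, two-sided, the smallest that 3 against 3 allows. The detection limits given above also differed between the groups, and their part in this difference was not tested. A reading against 1 common level of -3.07, the highest of the 6 limits, was added after the values were seen. There 26.0% ± 0.485 (SD, n = 3) of the NR_ probes lay above it in WT and 26.4% ± 0.427 (SD, n = 3) in KO, a difference of 0.471 points (exact permutation p = 0.4, two-sided). The gap between NR_ and NM_ probes differed between KO and WT by 0.300 points (exact permutation p = 0.6, two-sided). The sign of that value changed with the processing.

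Detection differed between the kinds of non-coding transcript. Structural small RNAs were almost always read: 28 of their 29 probes were tested, meaning that all 3 arrays of WT, of KO or of both marked them as well above background. Of the pseudogene probes 133 of 288 were tested, of the probes of protein-coding genes 52 of 97, and of the long non-coding RNA probes 501 of 2046. None of the 6 antisense RNA probes was read on any array, and 7 of the 11 probes of other or no class were tested. In all 721 of 2477 NR_ probes (29.1%) were tested, against 64.6% of the NM_ probes, and 1458 (58.9%) were well above background on no array. Median GC content was 43.3% in the tested NR_ probes and 40% in those never detected.

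Among tested probes the median level was -1.37 for NR_ and 0.60 for NM_ probes. It was -1.71 for long non-coding RNAs, 0.26 for pseudogenes and 0.78 for structural small RNAs. A level compares probes here and not molecules, since each probe binds with its own strength. All 721 tested probes were well above background on every WT array and 601 of them also on every KO array. Of the other 120, 19 were well above background on no KO array, and no NR_ probe was detected in KO alone. The NM_ probes were as one-sided, with 288 read on all WT arrays and no KO array and 3 the other way round. The detection limits were higher on the KO arrays, and their part in these counts was not tested.

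The brightest members were ribosomal and small RNAs and processed pseudogenes. Rn18s, which names the RNA of the small ribosomal subunit, stood at 9.52 to 9.90 over the 6 arrays. Gm6607 came next (8.35 to 8.50), followed by Rn4.5s, the rodent 4.5S RNA (8.23 to 8.50), Rn28s1, the RNA of the large subunit, and Gm5523 (8.12 to 8.38). Gm20751, Gm8580, Gm6548, Gm15772 and Gm12070 completed the 10 brightest genes, between 7.22 and 8.07. Of the 50 brightest of 669 tested genes, 26 were pseudogenes, 15 long non-coding RNA genes and 6 structural small RNA genes.

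Several of these pseudogene probes share long runs of bases with a probe for another, coding gene. A run of at least 20 of the 60 bases was shared with an NM_ probe of another gene by 34 members, 21 of them pseudogenes. Capitals mark the shared run in the examples below, which are pseudogenes that match Rpl22l1, Gpr137b, Rpl29 and Rps20. Of these coding genes Rpl22l1, Rpl29 and Rps20 encode ribosomal proteins or a relative of one. They lie at chr5:22034094-22034153, chr13:12707412-12707471, chr10:93128065-93128124 and chr9:22134624-22134683, all on the minus strand.
Gm15421, run shared with Rpl22l1: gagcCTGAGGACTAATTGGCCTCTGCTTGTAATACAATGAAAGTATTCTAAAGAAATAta
Gpr137b-ps, run shared with Gpr137b: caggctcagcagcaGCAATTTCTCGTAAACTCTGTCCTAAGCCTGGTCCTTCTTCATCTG
Gm8580, run shared with Rpl29: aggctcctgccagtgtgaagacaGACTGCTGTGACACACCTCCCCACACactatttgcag
Gm6607, run shared with Rps20: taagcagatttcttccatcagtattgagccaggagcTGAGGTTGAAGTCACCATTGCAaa

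The shared run is 54 bases for Gm15421, 46 for Gpr137b-ps, 26 for Gm8580 and 22 for Gm6607. Gm15421 stood at 5.74 and the Rpl22l1 probe at 6.05, with differences of -0.10 and -0.08. Gpr137b-ps stood at 4.46 and Gpr137b at 5.14, with differences of 0.26 and 0.22. For Gm8580 and Rpl29 the levels were 7.82 and 7.72, and for Gm6607 and Rps20 8.42 and 8.76. Of the 21 such members tested together with their coding probe, 19 differed from it by less than 0.1 in the KO to WT difference. Most probes changed little, with quartiles of -0.08 and 0.14 over all tested probes. How often unrelated probes lie as close was not counted, so the 19 are no measure of shared binding. The levels of these members are uncertain as measures of the pseudogene or other non-coding RNA, because a probe with such a run may also bind the coding transcript. This was not tested.

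No NR_ probe passed the test between KO and WT. In limma, with Benjamini-Hochberg adjustment over all 28607 tested probes of the array, 0 of 721 had an adjusted p under 0.05, and the smallest was 0.0519. Over all tested probes 18 passed (0.0629%), 4 higher and 14 lower in KO. At an unadjusted limma p under 0.05 there were 115 NR_ probes (16.0%), 64 higher and 51 lower in KO. Over all tested probes the same rule took 15.9%, with 8.85% higher and 7.03% lower, so the members' share lies near that background. Other settings called between 0 and 7 NR_ probes. Without the 2 arrays with Xist signal 0 of 725 were called, and 101 had an unadjusted limma p under 0.05.

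The groups did not overlap for 152 NR_ probes, 85 higher and 67 lower in KO. This was 21.1% of the members, beside 22.4% of all tested probes (13.2% higher and 9.11% lower). The median difference was 0.03 in the members and 0.03 over all tested probes. By kind, the median was 0.01 for long non-coding RNAs, 0.04 for pseudogenes, 0.05 for the probes of protein-coding genes and 0.24 for structural small RNAs.

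Of the 601 members well above background on all 6 arrays, 3 read at least 2-fold lower in KO (0.656% of all such probes) and 1 at least 2-fold higher (0.129%). The 3 were Miat, Rab10os and Runx2, and the 1 was Pisd-ps3, whose groups overlapped (all but Miat were singled out once their values were known). Over all 721 members the measured signals passed 2-fold for 4 more in the lower direction (background 1.17%) and for Ube2d-ps in the higher direction (background 0.203%). Of these 4, 1700061I17Rik, 3300002P13Rik and 5430421F17Rik were well above background on no KO array and were tested only because the WT arrays read them, so a 2-fold difference was not shown for them; the lower bounds were 1.07-fold for 3300002P13Rik and 1.01-fold for 5430421F17Rik, and 1700061I17Rik allowed none. The other was Slc22a13b. Rab10os rested on WT replicate 3, at -0.18 beside -2.46 and -2.42, and Slc22a13b on WT replicate 1, at 0.02 beside -2.47 and -3.12.

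The smallest adjusted p belonged to 1700012I11Rik, a long non-coding RNA without a known role. It stood at -2.19, -2.22 and -2.02 in WT and at -2.90, -3.05 and -2.97 in KO. All KO arrays lay below all WT arrays, and the spread within a group was small. The difference was -0.83 (SE 0.09, limma adjusted p = 0.0519), which is 1.78-fold lower, and it fell between -0.87 and -0.55 in 15 alternatives, 4 of which called it (limma adjusted p 0.0355 to 0.170).

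Miat, also known as Gomafu, is a nuclear RNA that gathers in speckle-like foci and binds splicing factors. The detected probe read -1.48, -1.38 and -2.03 in WT and -2.85, -2.84 and -2.72 in KO. The groups did not overlap, and WT replicate 3 was the lowest of its group. The difference was -1.17 (SE 0.17, limma adjusted p = 0.0716), or 2.25-fold lower. Without WT replicate 3 it was -1.37, with a limma adjusted p of 0.0263; over all 15 alternatives that p ran from 0.0263 to 0.203. The other Miat probe was well above background on no array, with -4.16, -4.48 and -4.21 in WT and -5.22, -5.24 and -5.35 in KO.

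The remaining genes with the smallest p in the lower direction were Gm19705 (-0.75, SE 0.10), 3300002P13Rik (-1.12, SE 0.17) and Zfp783 (-0.61, SE 0.09), with limma adjusted p of 0.0647, 0.0716 and 0.0726. Zfp783 is annotated as a non-coding transcript of a zinc finger locus. It stood at -0.24, -0.19 and -0.34 in WT and -0.85, -1.01 and -0.75 in KO, without overlap. For 3300002P13Rik no KO array was well above background and it was tested only through WT, so the fold has only a lower bound: WT was at least 1.07-fold higher. The bound sets the WT mean against, on each KO array, the higher of the detection limit and the probe's own signal, while the limma p uses the signals as measured.

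In the higher direction the 5 genes with the smallest p were A930015D03Rik, 3110099E03Rik, 4933439K11Rik, Gm16907 and 3110056K07Rik. A930015D03Rik read -3.54, -3.53 and -3.60 in WT and -2.67, -2.96 and -2.60 in KO. Its groups did not overlap, and all 6 values lay close to the detection limit. The difference was 0.81 (SE 0.11, limma adjusted p = 0.0647). The differences of the other 4 were 0.58, 0.47, 0.41 and 0.41, with limma adjusted p between 0.0858 and 0.131, and none of the 5 had overlapping groups. 3110099E03Rik was not well above background on all 6 arrays and was tested only because the WT arrays read it. Dim probes read higher in KO in general. The 1458 NR_ probes well above background on no array had a median difference of 0.564, and 89.2% of them were higher. The part of this shift in the 5 genes was not tested.

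Of the 19 probes read on all WT arrays and no KO array, 6 allowed a lower bound above 1. The largest bounds were those of B230354K17Rik (at least 1.39-fold), 1700057H15Rik (at least 1.28-fold), 3300002P13Rik (at least 1.07-fold), 4921531P14Rik (at least 1.03-fold) and Kank4os (at least 1.01-fold). The B230354K17Rik bound rested on WT replicate 1, at -1.53 beside -3.59 and -3.60, and the other 2 probes of that gene were well above background on all 6 arrays with differences of -0.15 and -0.07. These probes were tested only because the WT arrays read them, so their p-values are not read as evidence of a difference.

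The snoRNA host genes held the most members that were lower in KO. All 17 genes of this list present as NR_ probes were tested. They include Mir22hg, by its name a host of a microRNA, which is also counted below among those hosts. Snhg14 was not on this list and is counted below among the imprinted RNAs. Of the 17, 6 had an unadjusted limma p under 0.05 in the lower direction (7.03% of all tested probes) and 0 in the higher direction (8.85%). The groups did not overlap in 8 lower hosts (9.11%) and 1 higher host (13.2%). The median difference was -0.09, beside 0.03 over all tested probes, and 0 hosts passed the limma test after adjustment. In 15 alternatives between 4 and 7 hosts had an unadjusted p under 0.05 in the lower direction, the lowest count being that without the 2 arrays with Xist signal, and the median lay between -0.13 and -0.07.

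Gas5, an RNA that accumulates when growth or translation stops and whose introns hold many box C/D snoRNAs, was the brightest host. Its brighter probe read 6.03, 6.26 and 6.15 in WT and 5.67, 5.38 and 5.56 in KO. Every KO array lay below every WT array. The difference was -0.61 (SE 0.11, limma adjusted p = 0.0835), or 1.52-fold lower. The dimmer probe gave -0.72 (SE 0.14, limma adjusted p = 0.0953) from 5.37, 5.76 and 5.65 in WT and 4.99, 4.66 and 4.97 in KO, again without overlap.

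Snhg12 stood at 3.42, 3.61 and 3.52 in WT and at 2.97, 2.47 and 2.96 in KO. The groups were separate, and KO replicate 2 was the lowest array. The difference was -0.71 (SE 0.15, limma adjusted p = 0.109). The other hosts with an unadjusted p under 0.05 were Snhg18 (-0.41), Snhg6 (-0.39), Snhg8 (-0.37) and Epb41l4aos (-0.24), with limma adjusted p between 0.124 and 0.275. Snhg1 (-0.19) and Snhg10 (-0.09) had separate groups without reaching that p.

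The hosts did not share 1 direction. Among the brightest NR_ probes of the hosts, that of Snhg15 had separate groups and higher KO values. It read 4.15, 4.19 and 4.15 in WT and 4.26, 4.35 and 4.39 in KO (difference 0.17, limma adjusted p = 0.324). However, this probe shares 22 bases with a probe of the coding gene Utp6, whose difference was 0.15. The dimmer NR_ probe of Snhg15 gave 0.11 (SE 0.09) with overlapping groups. Snhg7 (0.20), Mir22hg (0.13), Snhg3 (0.09), Snhg20 (0.08), Snhg4 (0.00), Snhg5 (0.00), Snhg9 (-0.04) and Snhg16 (-0.11) had overlapping groups. A dimmer Snhg5 probe of another accession, no member, gave 0.33 (SE 0.09, limma adjusted p = 0.160) with separate groups. That of Snhg7, likewise no member, gave -0.04 with overlapping groups. Zfas1, a host on the same list that is no member because its probe carries a coding accession, differed by -0.43 (limma adjusted p = 0.112), at 3.45, 3.64 and 3.46 in WT and 3.15, 2.97 and 3.13 in KO. Snhg11, likewise no member, differed by 0.08. A pair of bright long non-coding RNAs chosen after their values were seen, 2410006H16Rik (-0.55) and Gm3704 (-0.65), had separate groups and limma adjusted p of 0.0867 and 0.0917.

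Among 15 tested factors of nonsense-mediated decay, the pathway that degrades spliced host RNAs, 2 had an unadjusted limma p under 0.05, Upf3b (0.21) and Smg5 (0.21), both higher in KO (8.85% of all tested probes), and 0 passed after adjustment. The second tested probe of Upf3b gave 0.22 (SE 0.12) with overlapping groups, and that of Smg5 -0.08 (SE 0.10). The median over the 15 was 0.06, and 0 to 4 factors were higher by the same rule in 15 alternatives.

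The structural small RNAs had mostly positive differences. Of their 28 tested probes 23 had a positive difference, beside 16559 of all 28607 tested probes. At an unadjusted limma p under 0.05, however, 4 of the 28 were higher (8.85% of all tested probes) and 1 lower (7.03%), and 0 passed after adjustment. One array stood out: KO replicate 1 was the highest of the 6 in 17 of the 28 probes, and WT replicate 2 the lowest in 12. The median deviation of these probes from their own mean was 0.33 on KO replicate 1, 0.08 on KO replicate 3 and -0.10 on KO replicate 2, against -0.15, -0.19 and 0.02 on the WT arrays in order. For the other tested members all 6 array medians lay between -0.04 and 0.02.

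Rn28s1 spread widely, at 7.73, 7.45 and 8.40 in WT and 9.31, 8.11 and 8.88 in KO. The groups overlapped, and the difference was 0.91 (SE 0.36, limma adjusted p = 0.291). The probes of U1 small nuclear RNA, which pairs with 5′ splice sites, had the same order of arrays at the top: Rnu1a1 read 5.00, 5.20 and 5.29 in WT and 5.80, 5.12 and 5.50 in KO, a difference of 0.31 with overlapping groups. Rn4.5s (0.19), Snord17 (0.30) and Snord7 (0.29) had separate groups and higher KO values. With Rmrp, which was lower, the groups were separate in 4 of 28 structural probes (14.3%), beside 22.4% of all tested probes.

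Rmrp, the RNA of the RNase MRP enzyme that cuts precursor ribosomal RNA, was the structural RNA with a lower value in KO and separate groups, at 1.65 to 1.79 in WT and 1.42 to 1.57 in KO (difference -0.22, SE 0.08, limma adjusted p = 0.258). Rpph1, the RNA of RNase P, differed by 0.37 with overlapping groups, its relatives Rprl2 and Rprl3 by 0.35 and 0.43, and Rprl1 by -0.20 (SE 0.21), all 3 with overlapping groups. Rn7sk, which holds the elongation factor P-TEFb inactive, differed by 0.14 and Rnu12, of the minor spliceosome, by -0.05. Terc, the telomerase RNA, was well above background on all WT arrays and no KO array although its values, -3.60, -3.79 and -3.93 in WT and -3.59, -3.94 and -3.49 in KO, overlapped. On the shorter list of named structural RNAs 9 of 9 were tested, with 0 higher (8.85% of all tested probes) and 1 lower (7.03%) at an unadjusted p under 0.05 and a median of 0.10, which was -0.02 without the 2 arrays with Xist signal.

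The nuclear body RNAs showed no member below an unadjusted p of 0.05. Malat1 was not analysed here. Neat1, the scaffold of paraspeckles, read 0.12, 0.12 and 0.30 in WT and 0.35, 0.52 and -0.35 in KO. The KO arrays held both the highest and the lowest value. The difference was -0.01 (SE 0.22), and the second probe gave 0.00 (SE 0.20). Tug1 (-0.08), Firre (0.22) and Rn7sk made up the 4 of 4 tested members, whose median was 0.06 (-0.02 without KO replicate 2). Of 13 tested paraspeckle and speckle proteins 12 had a positive difference at their brightest probe, beside 16559 of all 28607 tested probes. An unadjusted limma p under 0.05 was reached by 2 (8.85% of all tested probes were higher by that rule), Sfpq (0.33) and Srsf2 (0.23). The other 4 tested Sfpq probes gave 0.10, 0.18, 0.21 and -0.04, so this gene's value depended on the probe. Dimmer probes of other listed proteins went either way. Those of Srrm2 gave -0.80 and -0.54 with separate groups and -0.07, beside 0.11 at its brightest. Those of Srrm1 gave 0.43 with separate groups and -0.01. Among the other proteins, dimmer probes with separate groups were all higher in KO, at 0.31 for Pspc1, 0.30 and 0.38 for Matr3 and 0.25 for Tardbp. The remaining dimmer probes of Matr3 and Tardbp gave -0.28 to 0.07 with overlapping groups. No list member passed after adjustment, and the median was 0.11.

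Imprinted non-coding RNAs are expressed from 1 parental copy. Of the 13 genes present 7 were tested, 1 with an unadjusted p under 0.05 (Meg3, higher; 8.85% of all tested probes) and 3 with separate groups, all higher in KO (13.2%). The median difference was 0.15, but it was 0.01 without KO replicate 2. The detected NR_ probe of Meg3 read -2.22, -2.96 and -2.58 in WT and -2.19, -1.44 and -1.74 in KO. The groups were barely separate, WT replicate 1 lying next to KO replicate 1. The difference was 0.79 (SE 0.25, limma adjusted p = 0.208). A brighter Meg3 probe, no member because it carries another accession, read -1.63, -1.64 and -1.93 in WT and -1.74, -0.95 and -0.95 in KO. Its groups overlapped, and the difference was 0.52 (SE 0.23, limma adjusted p = 0.338). The 2 undetected NR_ probes of Meg3 printed above lay between -6.42 and -5.23 on all 6 arrays.

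Kcnq1ot1, the antisense RNA that silences genes of its imprinted cluster on the paternal copy, was read by 4 of its 5 probes. The brightest stood at 2.94, 3.08 and 3.16 in WT and at 3.18, 3.35 and 3.28 in KO, with separate groups and a difference of 0.21 (SE 0.09, limma adjusted p = 0.332). The other 3 detected probes gave 0.32, 0.27 and 0.40, so all 4 were higher in KO, although none passed the test. The fifth probe was well above background on no array, so that the mean levels of the 5 probes of this RNA spanned 9.15.

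Airn, which silences Igf2r in cis, had separate groups, at 0.87, 0.92 and 1.02 in WT and 1.07, 1.15 and 1.04 in KO, with a difference of 0.15 (SE 0.08, limma adjusted p = 0.41). A brighter Airn probe of another accession gave 0.32 (SE 0.14) with overlapping groups. Peg13 read 1.95 to 2.11 on all 6 arrays, a difference of 0.00 (SE 0.08). H19, the maternally expressed RNA of the Igf2 locus, varied most within the groups, at -0.79, -0.11 and -1.55 in WT and -2.18, -0.69 and -0.46 in KO. Its 2 lowest arrays were WT replicate 3 and KO replicate 1, the arrays with Xist signal. The difference was -0.29 (SE 0.53, limma adjusted p = 0.843). Snhg14 (-0.14) and Zim3 (0.15) lay near the detection limit.

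Of 17 tested imprinted coding genes, Mest (1.07) and Cdkn1c (0.69) were higher (8.85% of all tested probes) and Dcn (-1.05) and Plagl1 (-0.26) lower (7.03%) at an unadjusted limma p under 0.05, 0 passed after adjustment, and the median was 0.00. The groups overlapped for Cdkn1c, and a dimmer Plagl1 probe gave -0.16 (SE 0.10) with overlapping groups. In the X-inactivation list, Jpx was the tested member of 3 present, at -0.56 (SE 0.52) with overlapping groups. This rested on WT replicate 2, at -1.04 beside -3.19 and -2.78, without which the difference was 0.08, while Xist and Ftx were not tested.

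RNAs of the HOX clusters and of mesoderm formed the next group. Of 19 genes present 9 were tested; 2 were lower (7.03% of all tested probes) and 1 higher (8.85%) at an unadjusted p under 0.05, and the median was -0.06. Haglr, transcribed opposite to genes of the HoxD cluster, read 0.64, 0.75 and 0.71 in WT and 0.07, -0.23 and 0.13 in KO. All KO arrays lay at least 0.5 below all WT arrays. The difference was -0.71 (SE 0.11, limma adjusted p = 0.0737), or 1.63-fold lower, and ran from -0.78 to -0.60 in 15 alternatives, 2 of which called it (limma adjusted p 0.0436 to 0.227).

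Hoxa11os, transcribed opposite to the limb and skeletal gene Hoxa11, read 0.70, 0.34 and 0.07 in WT and -1.27, -0.39 and -0.22 in KO. The groups were separate, with KO replicate 1 the lowest. The means were 0.37 ± 0.32 (SD, n = 3) in WT and -0.63 ± 0.56 (SD, n = 3) in KO (SE of the difference 0.30, limma adjusted p = 0.195). A second Hoxa11os probe, of another accession, gave -1.01 (SE 0.25), also with separate groups. The Hoxa11 probe itself differed by -0.70 (SE 0.19). The member that was higher was Dubr (0.27), and Hottip (-0.06), Hoxaas3 (0.00), Hoxb5os (-0.09), Foxd2os (0.27), Dnm3os (0.05) and Bvht (-0.14) had overlapping groups.

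Markers of osteoblasts moved in the same direction as Miat, Haglr and Hoxa11os: all 5 (Runx2, Sp7, Alpl, Bglap and Ibsp) were well above background on all 6 arrays and all 5 had a lower KO value at an unadjusted limma p under 0.05. Runx2 was read here by its NR_ probe, itself a member, while its 2 NM_ probes gave -0.74 and 0.08. The mean level of these 5 markers ranged from 3.74 to 4.00 in WT and from 2.27 to 2.92 in KO. The mean of the 9 macrophage markers ranged from 5.57 to 5.65 in WT and from 5.72 to 5.86 in KO, and 1 of them was higher by the same rule. The mean of the 10 stromal markers ranged from 2.51 to 2.67 and from 2.15 to 2.52. The part of these shifts in the values of the non-coding RNAs was not tested.

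Host genes of microRNAs gave few readings. Of 8 present 6 were tested, 1 higher at an unadjusted p under 0.05 (8.85% of all tested probes), and the median was 0.07. Mir99ahg, which carries miR-99a and let-7c, read -2.74, -2.47 and -2.09 in WT and -2.16, -1.72 and -1.93 in KO. WT replicate 3 lay within the KO range, and the difference was 0.50 (SE 0.19, limma adjusted p = 0.279). Its dimmer NR_ probe gave 0.36 (SE 0.19) with overlapping groups. Brighter Mir99ahg probes of other accessions, no members, gave 0.43 (SE 0.16) and 0.35 (SE 0.14) with separate groups and 0.24 (SE 0.13) with overlapping groups. All these probes were higher in KO, and none passed the limma test after adjustment. Dleu2, the host of miR-15a and miR-16-1, differed by -0.48 (SE 0.20) with overlapping groups. Dimmer Dleu2 probes of other accessions went the other way. They gave 0.60 (SE 0.24) with overlapping groups and 0.46 (SE 0.13) with separate groups, so the sign for this gene depended on the probe. Mir22hg (0.13), Carmn (0.09), Dnm3os (0.05) and Mir100hg (0.03) had overlapping groups.

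On the list of p53, growth and stress RNAs 9 of 10 members were tested, 2 higher (8.85% of all tested probes) and 2 lower (7.03%) at an unadjusted p under 0.05, with a median of -0.08. Besides Gas5, Miat and Meg3, it was Lncpint, a p53-induced RNA, that had a p under that threshold. It read -1.36, -1.07 and -0.94 in WT and -0.70, -0.51 and -0.72 in KO, without overlap (difference 0.48, SE 0.13, limma adjusted p = 0.166), and its dimmer probe gave 0.46. Norad, which binds Pumilio proteins, gave 0.01 (SE 0.08) at its brightest probe and 0.13 to 0.18 at the other 3. Pvt1 (-0.16), Oip5os1 (0.05), Tug1 and Dleu2 had overlapping groups.

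Immune and macrophage RNAs numbered 9 members, 7 of them tested, 2 lower (Miat and Rmrp; 7.03% of all tested probes) and 0 higher (8.85%) at an unadjusted p under 0.05, with a median of -0.09. Morrbid, which limits the life span of myeloid cells, read 1.15 to 1.32 in WT and 1.07 to 1.24 in KO, a difference of -0.09. Ptgs2os2 (0.08) and Mirt1 (0.28) lay near the detection limit. Mir142hg, the host of a blood-cell microRNA, is no member because its probe carries another accession. It read 2.01, 1.91 and 2.11 in WT and 2.64, 2.71 and 2.30 in KO, without overlap (difference 0.54, limma adjusted p = 0.132).

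The members can be set against related probes on the same arrays. Of 186 genes with several NR_ probes, 43 had several tested ones; in 32 of these all probes had the same sign of difference, and the probes of a gene differed from each other by a median of 0.14 and by up to 1.14 (Ube2d-ps). Of 146 members named as opposite-strand transcripts of a coding gene, 34 were tested together with that gene. The signs matched in 14 of the 34 pairs, and across these pairs, which share arrays but not probes, Pearson's r was 0.15 and Spearman's rho -0.13. Hoxa11os with Hoxa11 was the pair in which both partners had an unadjusted p under 0.05.

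Of the 52 tested NR_ probes of protein-coding genes, 28 had a tested NM_ probe of the same gene beside them, and 19 of the 28 pairs had the same sign. The NR_ probe was the brighter in 10 pairs. Runx2, the master transcription factor of osteoblasts, gave the largest difference by its NR_ probe, at 0.22, 0.24 and 0.07 in WT and -0.88, -1.66 and -0.64 in KO. The groups were separate, with KO replicate 2 the lowest. The difference was -1.23 (SE 0.25, limma adjusted p = 0.103), whereas the 2 NM_ probes of Runx2 gave -0.74 and 0.08. Bmp1, a procollagen protease, gave -0.56 by its NR_ probe and -0.30 by its brighter NM_ probe.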

How the data were processed

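Scanner files of 6 arrays were used. Per the file headers, the intensity values are processed signals, background-corrected and detrended in Agilent Feature Extraction 10.7.1.1 (9.1 in the submitters' processing notes); probe positions are mm9. The authors' deposited table of the series gives log2 values with the same distribution in every column, used as an alternative. The arrays number 3 per group, which limits the precision. Outlier spots (49 to 131 per array) were left out, spots of a probe averaged, and log2 signals centred on the array's 75th percentile over non-control probes. A probe with several spots counted as well above background when at least a share of 0.5 of them were. Tested were probes that all 3 arrays of 1 group or of both marked as well above background. Differences were fitted on all tested probes in R 4.3.3 with limma 3.58.1 (lmFit, eBayes, group only, 4 residual degrees of freedom), two-sided, Benjamini-Hochberg threshold 0.05. On simulated data for KO against WT with 28598 probes, 183 of 200 changed probes were recovered at a log2 change of 1 (16 false calls) and 199 at 2 (17 false calls). The simulated noise was normal and independent, and each probe's variance was moved toward the median variance. Noisy probes were therefore quieter there than in the data. These counts check the procedure and do not give the share of real 2-fold changes that the test would find.

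Symbols came from a RefSeq table of assembly GRCm38.p6: 2407 probes matched by accession, 43 by symbol and 19 by synonym, and 8 kept the file's name. Sequences are the deposited probe sequences. A gene is represented by its brightest tested NR_ probe. Named genes are those of 9 non-coding lists, per direction the 5 smallest p, the 10 brightest and up to 5 read in 1 group only; 3 lists of coding genes (imprinted genes, paraspeckle and speckle proteins, decay factors) were added. Some items are not reported here. The members, lists and marker sets were chosen with earlier results of these data known. Nothing says that samples are separate animals, so p-values measure only the spread between these 6 samples.

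All 6 arrays share 1 slide and 1 scan time. Alternatives were normexp with quantile normalization, other centrings, the series table, other filters and detection rules, a variance trend, a replicate block and leaving out arrays.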

Additional observations from a re-analysis of the deposited data

How the results depend on the processing

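Alternatives that called NR_ probes after adjustment in limma were normexp with quantile normalization (3), median centring (2), the deposited series table (1) and a variance trend (7, all lower); leaving out 1 replicate gave 0 to 2. These were 11 probes in all, over 7 of 15 alternatives. Over all probes the count of 18 became 194 with normexp, 109 with median centring, 209 with the trend, 10 with detection required on all 6 arrays, 0 without the filter (18014 at an unadjusted p under 0.05), and 2 to 25 without 1 replicate; the low values were 2 without WT replicate 1 and 4 without WT replicate 2.

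The median NR_ difference of 0.0288 became 0.00232 with median centring, 0.00855 with the series table, 0.396 without the filter, and 0.0100 to 0.0367 without 1 replicate. The share of NR_ probes read in KO minus WT, -3.89 points, became 0.471 at a common level, an alternative chosen after seeing the data, as was centring over spots, which left 0 NR_ calls. Its gap to NM_ probes, 0.300 points, became -1.39 with the other detection flag, -0.501 per gene, and -0.0353 to 0.541 without 1 replicate. The NR_ to NM_ gap over arrays was -34.7 points without the arrays with Xist signal (exact sign-flip permutation p = 0.125) and -34.8 to -34.5 without 1 replicate (p = 0.0625), in each case the smallest p allowed.

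Replicate numbers did not pair the samples: deviations of same-numbered arrays correlated at 0.06, 0.15 and -0.03. With a replicate block 0 NR_ probes and 0 of all probes were called (4765 at an unadjusted p under 0.05). The fit with slide or scan as a block was not run, since both hold all 6 arrays. Of 1215 values for 81 named genes, 1187 kept their size and side of the threshold, 16 moved, 12 passed the threshold, and 72 changed sign, none of them for a gene with an unadjusted p under 0.05. Signal over background limits the 1458 undetected probes.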
